A study of Mus musculus with 20 samples.

Results

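The phase II conjugation enzymes attach glutathione, glucuronic acid or sulfate to reactive or fat-soluble molecules. They were taken here as all genes whose symbol names a glutathione transferase (Gsta, Gstk, Gstm, Gsto, Gstp, Gstt, Gstz and Mgst), a glucuronosyltransferase of the Ugt1, Ugt2 or Ugt3 groups, or a sulfotransferase (Sult). A probe set, the group of array probes that reads 1 transcript, counted only where the platform annotation gave it exactly 1 gene symbol, and each gene was read by whichever of its probe sets averaged highest over all 20 arrays. This gave 46 genes of the 18193 named on the array: 23 glutathione transferases, 10 glucuronosyltransferases and 13 sulfotransferases. No Ugt1 gene had a probe set of its own.

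Livers came from 8-week-old males of the inbred strain C57BL/6J, with no engineered allele named in the labels. After a week on the low-fat diet, the 10 high-fat mice ate a diet with 45% of its energy from fat for 4 weeks, and the 10 low-fat mice stayed on the diet with 10%. All were killed after a 16 h fast, and each liver was hybridised to its own array. Other high-fat groups, whose diet held a substance labelled MSXH, are not analysed here.

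Glutathione transferases join glutathione to electrophiles such as lipid peroxidation products. Glucuronosyltransferases use UDP-glucuronic acid in the endoplasmic reticulum, and sulfotransferases use the sulfate donor PAPS in the cytosol. The liver is a main site of all 3 reactions, and the xenobiotic receptors CAR, PXR and AhR and the stress factor NRF2 are known to control many of them.

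The deposited value is a score per probe set. It runs from 5.18 to 15.001 like a log2 intensity, but its differences between arrays are compressed, and by different amounts for different probe sets: the median SD over the 20 arrays was 1.17e-05. A difference in score is therefore no fold change, and sizes cannot be compared between genes on that scale. Sizes are given as standardised differences, the high-fat mean minus the low-fat mean divided by the SD within diets, with a 95% interval. Values of single mice are given as the score or as SDs from the low-fat mean. Array medians lay between 6.56702 and 6.5672, and 0 pairs of arrays held identical values. Hepatocyte markers had scores well above these medians, for example a low-fat mean of 14.82 for Alb, and 0 of 9 measured passed the limma test between diets. Among them Ttr stood at -3.12 (-4.43 to -1.76, adjusted p = 0.224) with no overlap between diets, and Apoa1 at 1.35 (0.35 to 2.31, adjusted p = 0.719). Without moderation of the variances by limma, Ttr passed (adjusted p = 0.000942) and Apoa1 did not (0.112), whereas the calls among the 46 enzymes were the same 5. As these are whole livers, fewer cells of a type and less RNA per cell cannot be told apart.

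By limma with Benjamini-Hochberg adjustment over all genes, Gsta2, Sult5a1 and Ugt3a2 rose on the high-fat diet, and Gsta3 and Gstm6 fell. The other 41 genes did not pass an adjusted p of 0.05, among them Gstt1, Gstm1 and Sult1e1. The 5 genes past the threshold are 10.9% of the 46, against 3.49% of all genes tested. The 2 sets differ in level, as 35 of the 46 had a mean above the median gene mean. With only the 9096 genes above it tested, 755 genes passed. Of the 35 enzymes among them 3 rose and 3 fell, with Gstm2 added to the calls. The 3.49% of all genes is thus not the share among genes of similar level. Among the 9096 genes the enzymes still passed more often than the rest, and this difference was not tested. Over all genes 1.71% rose and 1.78% fell, beside 3 and 2 of these 46. No conjugation enzyme separated the diets completely, as 0.275% of all genes did. Of the 46 genes 19 lay above their low-fat mean and 27 below it. The median standardised difference was -0.26 over the 46 genes and 0.04 over all genes.

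The families are given by their counts, without a test between them, beside 52.5% of all genes that lay above the low-fat mean. Of the 23 glutathione transferases 5 lay above the low-fat mean and 18 below it, with a median of -0.86. The 10 glucuronosyltransferases had 6 above and 4 below (median 0.11), and the 13 sulfotransferases 8 above and 5 below (median 0.36). An unadjusted p under 0.05 was found for 12 glutathione transferases, 2 glucuronosyltransferases and 5 sulfotransferases, which together are 19 of the 46 genes or 41.3%, against 17.0% of all genes. Neither this share nor the family counts were matched to all genes in level. These balances depended on how arrays were scaled. After quantile normalisation the median was -0.65 for the 20 glutathione transferases that could be tested and -0.40 for all genes. After centring arrays on their medians it was -1.36 for the glutathione transferases and -1.29 for all genes. Most of the gap was gone there, but the array medians vary by more than the median SD over arrays of 1.17e-05. Centring thus sets the values of many genes and does not test their balance.

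**Figure D1:**
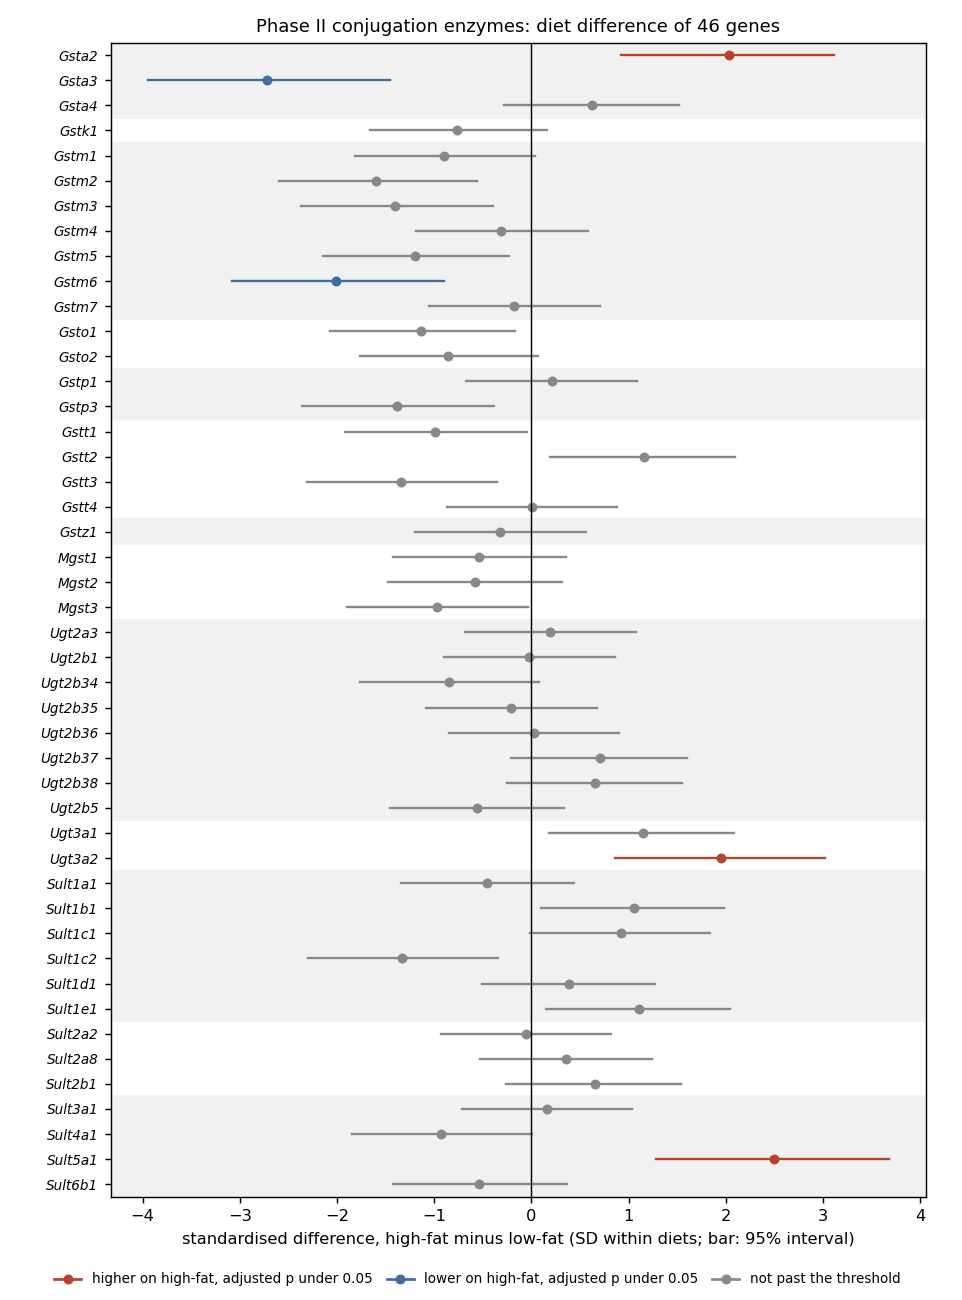
Standardised difference between diets, high-fat minus low-fat in SDs within diets, for the 46 conjugation enzymes grouped by family (shaded bands), with points for the estimate and bars for its 95% interval (n = 10 mice per diet). Gsta2, Sult5a1 and Ugt3a2 (red) lie above 0, Gsta3 and Gstm6 (blue) below 0, and all 7 Gstm genes lie left of the 0 line.

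In the alpha class, whose enzymes act on lipid hydroperoxides and lipid aldehydes, 1 of 3 genes rose and 1 fell. The Gsta2 score ran from 8.3205 over a median of 8.3219 to 8.3357 in high-fat mice, and from 8.3066 over a median of 8.3150 to 8.3210 in low-fat mice. Of the 10 high-fat mice 9 exceeded every low-fat mouse, and the overlap came from 1 high-fat mouse. Gsta2 averaged 8.324 ± 0.00483 in high-fat mice and 8.314 ± 0.00519 in low-fat mice (SD, n = 10 each), a standardised difference of 2.04 (95% interval 0.92 to 3.12, adjusted p = 0.0128). Its value was nearly the same after quantile normalisation (2.06) and after median centring (2.03).

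The Gsta3 score ran from 11.6953 over a median of 11.6961 to 11.6967 in high-fat mice, and from 11.6965 over a median of 11.6973 to 11.6985 in low-fat mice. Here 8 high-fat mice lay below every low-fat mouse. The standardised difference was -2.72 (-3.94 to -1.46, adjusted p = 0.00188), and a second probe set of Gsta3 also fell (-2.49, adjusted p over all probe sets 0.00492), where 1.11% of all probe sets rose and 1.20% fell. After quantile normalisation Gsta3 stood at -0.67 and no longer passed (adjusted p = 0.331), whereas median centring gave -2.94. Gsta4, which removes the lipid aldehyde hydroxynonenal, stood at 0.62 (adjusted p = 0.518). Gsta2 and Gsta4 lie on chromosome 9 and Gsta3 on chromosome 1.

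The promoters of Gsta2 and Gsta3 are shown because these genes of the same class moved in opposite directions, and that of Sult5a1 because it had the largest rise among the 46 genes in SD units. Each runs from 250 bases before to 50 bases after a RefSeq start site in GRCm38.p6, 5′ to 3′: Gsta2 at chr9:78347096-78347395, minus strand, Gsta3 at chr1:21240335-21240634, plus strand, and Sult5a1 at chr8:123158231-123158530, minus strand. Capitals mark matches on either strand to TGACNNNGC (antioxidant response element), GCGTG (core of the xenobiotic response element), TATAAA or AGGTCA (a nuclear receptor hexamer).
Gsta2: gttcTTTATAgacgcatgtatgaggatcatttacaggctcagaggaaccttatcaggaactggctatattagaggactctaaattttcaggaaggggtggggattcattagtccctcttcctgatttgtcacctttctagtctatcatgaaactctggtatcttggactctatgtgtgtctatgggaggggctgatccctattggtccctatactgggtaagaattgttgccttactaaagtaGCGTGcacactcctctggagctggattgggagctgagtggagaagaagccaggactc
Gsta3: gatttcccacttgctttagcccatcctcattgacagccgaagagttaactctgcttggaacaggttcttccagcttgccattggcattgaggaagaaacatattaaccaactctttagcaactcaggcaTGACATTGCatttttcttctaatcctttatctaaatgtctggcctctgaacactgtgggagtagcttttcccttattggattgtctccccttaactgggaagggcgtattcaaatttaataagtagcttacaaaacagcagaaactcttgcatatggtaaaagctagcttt
Sult5a1: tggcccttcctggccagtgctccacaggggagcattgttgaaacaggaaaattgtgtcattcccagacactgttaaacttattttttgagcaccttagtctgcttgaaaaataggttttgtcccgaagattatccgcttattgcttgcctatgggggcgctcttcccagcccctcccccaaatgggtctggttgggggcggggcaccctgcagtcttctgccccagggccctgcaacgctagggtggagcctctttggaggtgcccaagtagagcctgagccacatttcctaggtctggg

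Gsta3 holds an antioxidant response element match, TGACATTGC, whose first base lies at -121 from the start. Gsta2 holds a GCGTG at -7 and, at -246, a TATAAA on the opposite strand, printed as TTTATA. None of the 4 motifs matched in the Sult5a1 window or in the 3 windows listed for Gstm6, and Ugt3a2, Gstt2, Gsta4, Sult2a2 and Sult4a1 have no window in the table. Over the 53 windows of the 41 conjugation enzymes in the table, TGACNNNGC matched in 7.55%, against 12.4% of all 32851 windows, and GCGTG in 20.8%, against 32.4%. TATAAA matched in 18.9% of these windows, against 13.6% of all, and AGGTCA in 18.9%, against 16.3%. AGGTCA read on the other strand can share its TGAC with the first motif. These are matches of letters, not measured binding, and sites outside the windows, such as farther upstream, were not read.

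The mu class, a row of neighbouring genes on chromosome 3 whose enzymes conjugate epoxides and other electrophiles, had 1 of 7 genes that fell and 0 that rose, and all 7 lay below the low-fat mean. The class median was -1.20, against 0.04 for all genes, of which 47.5% lay below. All 7 also lay below after quantile normalisation (class median -0.85, all genes -0.40) and after median centring (-1.57, all genes -1.29), but these scalings put 70.1% and 94.99% of all genes below, so that the count of 7 says little there. Where all probe sets of a gene were averaged 6 of 7 lay below, since Gstm7 turned to 0.38. In the order of the chromosome the standardised differences were -1.20 for Gstm5, -0.18 for Gstm7, -2.01 for Gstm6, -1.40 for Gstm3, -1.598 for Gstm2, -0.90 for Gstm1 and -0.31 for Gstm4.

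The Gstm6 score ran from 7.9658 over a median of 7.9669 to 7.9673 in high-fat mice, and from 7.9669 over a median of 7.9680 to 7.9688 in low-fat mice. None of the 10 high-fat mice reached the low-fat median, and 5 lay below every low-fat mouse. The standardised difference of Gstm6 was -2.01 (-3.08 to -0.90, adjusted p = 0.0135). Gstm2, named after its values were seen, just missed the threshold (-1.598, -2.60 to -0.56, adjusted p = 0.0501), with 7 high-fat mice below every low-fat mouse. It passed in 7 of 20 fits without 1 mouse, with adjusted p as low as 0.0347 without high-fat replicate 9. Gstm3 (adjusted p = 0.0844) and Gstm5 (adjusted p = 0.148) did not pass, although Gstm3 did without low-fat replicate 10 (adjusted p = 0.0484).

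Gstm1, another liver enzyme of this class, ran from 11.24275 over a median of 11.24291 to 11.24305 in high-fat mice, and from 11.24275 over a median of 11.24303 to 11.24406 in low-fat mice. The high-fat mice thus lay inside the lower part of the low-fat range. The SD was 0.000106 in high-fat and 0.000455 in low-fat mice, and the standardised difference of -0.90 (-1.82 to 0.03) did not pass (adjusted p = 0.306). Gstm1 has 3 further probe sets, all below their low-fat means. These stood at -1.77 (adjusted p over all probe sets 0.0384), -1.66 (0.0524) and -0.67 (0.513), so that 1 of its 4 probe sets fell.

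The low-fat mice were spread more widely than the high-fat mice in several mu class genes, and the same mice stood out. Low-fat replicates 6 and 9 were the highest pair in 6 of the 7 genes, all but Gstm7. Averaged over the 7 genes, the 10 high-fat mice lay between -1.55 and -0.70 SDs, low-fat replicates 6 and 9 at 1.51 and 1.83 SDs, and the other low-fat mice between -1.13 and 0.05 SDs. Without these 2 low-fat mice, a setting chosen after seeing the data, Gstm6 stood at -1.81 (adjusted p = 0.0446), and Gstm4 (0.30) and Gstm7 (0.14) lay above the low-fat mean. Probe sets of such similar genes may read each other's transcripts, and this was not tested.

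**Figure D2:**
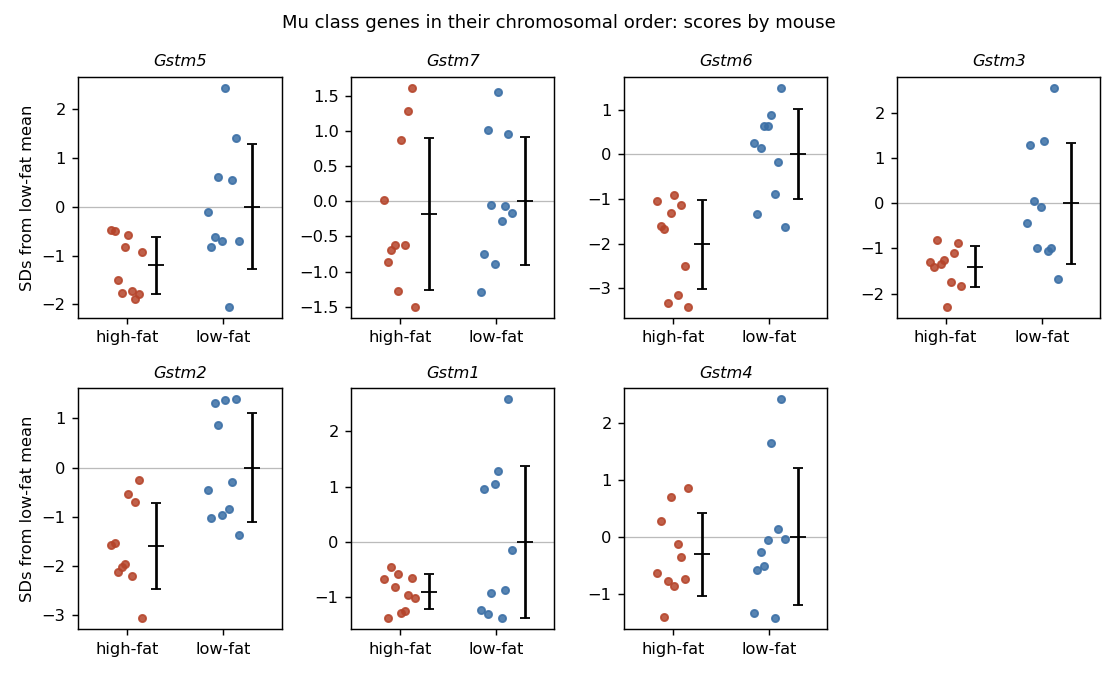
Scores of the 7 mu class genes in single mice, as SDs from the low-fat mean, with high-fat mice (red) left of low-fat mice (blue), in the genes' chromosomal order; black marks give mean ± SD (n = 10 each). High-fat mice lie low in Gstm6, Gstm3, Gstm2 and Gstm5, and in Gstm1 they sit within the lower part of a wide low-fat range.

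Of the other glutathione transferases 0 of 13 passed. Gstt1, a theta class enzyme that acts on small halogenated molecules, stood at -0.99 (-1.91 to -0.05, adjusted p = 0.248). Its high-fat mice ran from -3.07 over a median of -0.98 to 1.09 SDs, and its low-fat mice from -1.37 over a median of 0.17 to 0.60 SDs, so the diets overlapped widely. Along chromosome 10 the 4 theta genes stood at -1.35 (Gstt3), -0.99 (Gstt1), 0.01 (Gstt4) and 1.16 (Gstt2). The sign of Gstt4 turned under both other scalings. Centring does not test it, as the difference in score of 4.09e-08 was smaller than the range of the array medians. The cause of the turn after quantile normalisation was not tested.

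In the pi class Gstp3 stood at -1.39 (-2.36 to -0.39, adjusted p = 0.0884), with high-fat mice from -2.51 over a median of -1.30 to -0.01 SDs and low-fat mice from -1.96 over -0.07 to 1.596 SDs. It passed in 1 of 20 fits without 1 mouse (adjusted p = 0.0362 without low-fat replicate 2). Gstp1 stood at 0.21 (adjusted p = 0.883), and at -1.34 after median centring, where the array medians vary by more than its difference. Gsto1, an omega class enzyme that reduces dehydroascorbate, stood at -1.13 (-2.07 to -0.17, adjusted p = 0.178), with high-fat mice from -2.77 over a median of -1.11 to 0.12 SDs and low-fat mice from -1.58 over 0.00 to 1.66 SDs. A second probe set of Gsto1, with a suffix that marks possible cross-hybridisation, fell (-2.19, adjusted p over all probe sets 0.0117). Gsto2 stood at -0.86.

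The mitochondrial and peroxisomal Gstk1 stood at -0.76 (-1.66 to 0.16), with high-fat mice from -2.66 over a median of -0.65 to 0.81 SDs and low-fat mice from -1.74 over 0.17 to 1.53 SDs. Gstz1, which isomerises maleylacetoacetate in tyrosine breakdown, stood at -0.32 (-1.20 to 0.57), with medians of -0.09 SDs in high-fat mice and -0.12 SDs in low-fat mice. The membrane-bound enzymes Mgst1, Mgst2 and Mgst3 stood at -0.54, -0.59 and -0.98. For Mgst3 the high-fat mice ran from -3.17 over a median of -0.94 to 0.32 SDs and the low-fat mice from -1.61 over -0.14 to 1.47 SDs (adjusted p = 0.259). A second probe set of Mgst1 lay on the other side of 0 (0.73), and that of Mgst3 near 0 (0.03).

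Of the glucuronosyltransferases, Ugt3a2 rose and 0 fell. The Ugt3 enzymes use sugars other than glucuronic acid in humans. For Ugt3a2 the high-fat mice ran from 0.48 over a median of 2.43 to 2.83 SDs, and the low-fat mice from -1.65 over a median of -0.13 to 1.58 SDs. Of the high-fat mice 7 exceeded every low-fat mouse. The standardised difference was 1.95 (0.85 to 3.02, adjusted p = 0.0165) for a difference in score of only 3.83e-05. A difference this small is below the range of the array medians, so the other scalings do not test it: Ugt3a2 stood at -0.56 (adjusted p = 0.241) after median centring, which set the values by the array medians, and had 1 value on all arrays and no test after quantile normalisation. Its neighbour Ugt3a1 on chromosome 15 stood at 1.15 (adjusted p = 0.170), with a second probe set at 0.68.

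The 8 Ugt2 genes, which glucuronidate steroids, bile acids and drugs, had 0 that passed, 4 above and 4 below the low-fat mean. Ugt2b34 stood farthest from 0 (-0.85, -1.76 to 0.08, adjusted p = 0.342), with high-fat mice from -2.39 over a median of -0.67 to 0.96 SDs and low-fat mice from -1.21 over 0.06 to 1.26 SDs. The others were Ugt2b5 (-0.56), Ugt2b35 (-0.21), Ugt2b1 (-0.02), Ugt2b36 (0.02), Ugt2a3 (0.20), Ugt2b38 (0.66) and Ugt2b37 (0.71). Their intervals all included 0, and differences within these intervals were not excluded. Larger differences can also miss the threshold with these arrays, as Gstm2 did at -1.598 (limma adjusted p = 0.0501).

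Of the sulfotransferases, Sult5a1, whose substrates are little known, rose and 0 fell. The Sult5a1 score ran from 7.6521 over a median of 7.6541 to 7.6554 in high-fat mice, and from 7.6485 over a median of 7.6507 to 7.6532 in low-fat mice. Of the high-fat mice 7 exceeded every low-fat mouse, and in 97 of the 100 pairs of mice the high-fat mouse was higher. Sult5a1 averaged 7.654 ± 0.00115 in high-fat mice and 7.651 ± 0.0014 in low-fat mice (SD, n = 10 each), a standardised difference of 2.50 (1.29 to 3.67, adjusted p = 0.00335). It stood at 2.32 after quantile normalisation and 2.45 after median centring.

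Sult1e1, the oestrogen sulfotransferase, was the gene on which the tests differed. Its score ran from 6.0505 over a median of 6.0630 to 6.1436 in high-fat mice, and from 6.0438 over a median of 6.0498 to 6.0559 in low-fat mice. Each of the 10 high-fat mice exceeded the low-fat median, and 7 exceeded every low-fat mouse. Their spread was also wider, with an SD of 0.0276 in high-fat and 0.00414 in low-fat mice. The standardised difference was 1.11 (0.15 to 2.04), which did not pass by limma (adjusted p = 0.190), while the exact Wilcoxon rank sum test passed (adjusted p = 0.0306). High-fat replicate 9 stood at 4.78 SDs, and without it the standardised difference was 1.65 (adjusted p = 0.0522).

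The other Sult1 genes did not pass. They were Sult1b1, which sulfates thyroid hormones (1.05, adjusted p = 0.215), Sult1c1 (0.92), Sult1d1, which sulfates catecholamines (0.39), the phenol sulfotransferase Sult1a1 (-0.46) and Sult1c2 (-1.33, adjusted p = 0.104). On chromosome 5 Sult1b1, Sult1d1 and Sult1e1 follow the Ugt2 row directly among the 46 genes. In the Sult2 group, which sulfates hydroxysteroids, bile acids and cholesterol, Sult2b1 stood at 0.65 (-0.26 to 1.54), with high-fat mice from -0.69 over a median of 0.80 to 1.44 SDs and low-fat mice from -1.78 over 0.09 to 1.48 SDs. Its sign turned after quantile normalisation (-0.40) and median centring (-1.31). Centring does not test the sign of Sult2b1, as its difference in score of 1.96e-06 was smaller than the range of the array medians. The cause of the turn after quantile normalisation was not tested. Sult2a8 (0.36), Sult2a2 (-0.05), Sult3a1 (0.16), Sult6b1 (-0.54) and Sult4a1, a brain protein (-0.93), did not pass.

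**Figure D3:**
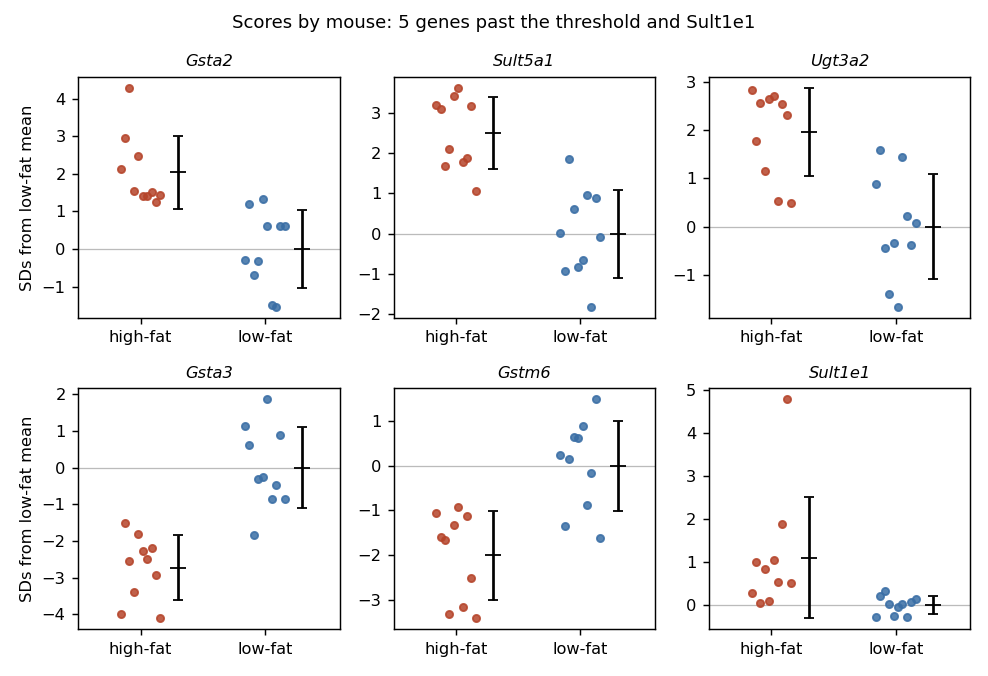
Scores in single mice, as SDs from the low-fat mean, for the 5 genes past the threshold and Sult1e1, with high-fat mice (red) left of low-fat mice (blue) and black marks for mean ± SD (n = 10 each). In Gsta2 9 high-fat mice exceed every low-fat mouse, in Gsta3 8 lie below every low-fat mouse, and in Sult1e1 high-fat replicate 9 stands at 4.78 SDs.

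**Figure D4:**
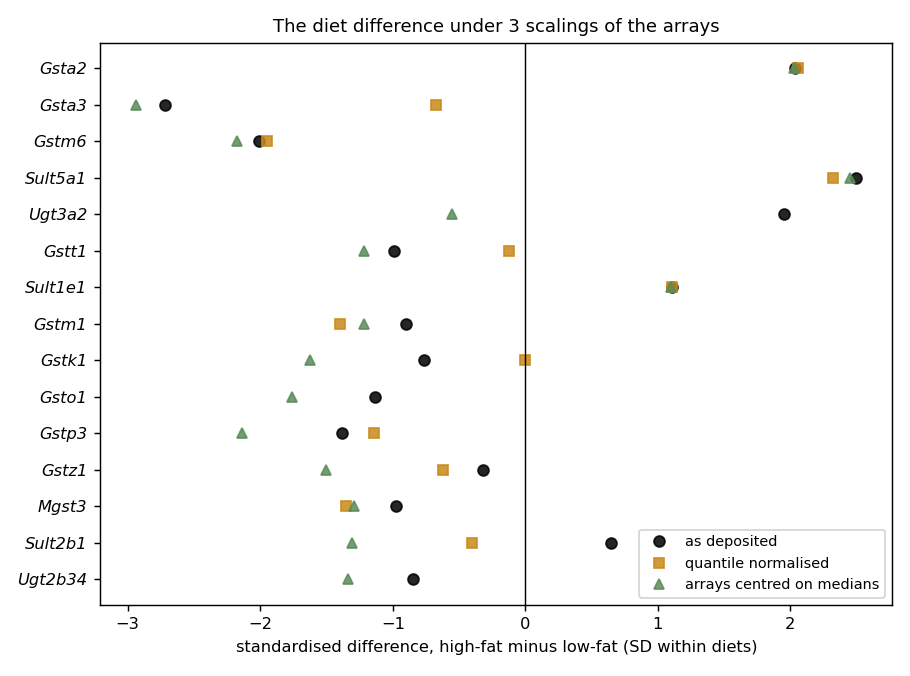
Standardised difference, high-fat minus low-fat, for 15 conjugation enzymes with the scores as deposited (circles), after quantile normalisation (squares) and after centring arrays on their medians (triangles); a missing square means 1 value on all arrays or a value not tested. Gsta2, Sult5a1 and Gstm6 keep their sign and call, Gsta3 shrinks to -0.67 after quantile normalisation, and Ugt3a2 turns to -0.56 after median centring.

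Genes around conjugation were read from 12 lists, of donor supply, transport, related enzymes, regulators, targets of those regulators and hepatocyte zones, chosen with earlier results of these data known. Of their 118 different measured genes 5 rose and 8 fell, which is 11.0% in all, against 3.49% of all genes. The lists were not matched to all genes in level, and 755 of the 9096 genes above the median gene mean passed when tested alone. Among donor supply and hydrolysis genes, Gusb, the lysosomal enzyme that splits glucuronides, fell (-1.96, adjusted p = 0.0162), and so did Arsa, a lysosomal sulfatase (-3.68, adjusted p = 0.000117, but 0.253 after quantile normalisation). Slc35b1, a nucleotide carrier of the endoplasmic reticulum, rose (3.29, adjusted p = 0.000365). Ugdh, which makes UDP-glucuronic acid, stood at 1.41 (adjusted p = 0.0833), and the PAPS synthases Papss1 and Papss2 at 1.05 and -0.31.

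Of 11 genes of glutathione synthesis and turnover only Ggt6, of the gamma-glutamyltransferase family, passed, and it fell (-2.12, adjusted p = 0.010, but 0.141 after quantile normalisation). Gclc, the rate-limiting step of glutathione synthesis, stood at -1.48 (adjusted p = 0.0671). Of 11 further NRF2 targets 0 passed, with a median of -0.05, and Nqo1 stood at 0.19. Of 5 AhR targets 0 passed, with a median of 0.07. Of 12 CAR and PXR targets 3 fell and 0 rose, with a median of -0.67, and these were Cyp3a11 (-5.07), Cyp2c29 (-3.26) and Cyp3a13 (-2.22), cytochromes of drug oxidation.

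Of 17 transcription factors that control these enzymes only Bach1, a repressor that competes with NRF2, passed, and it rose (2.10, adjusted p = 0.0109), although it stood at -0.44 after quantile normalisation. Nfe2l2, which encodes NRF2, stood at -0.21, and the receptor genes Nr1i3 (CAR), Nr1i2 (PXR) and Ahr at 1.25, -0.20 and 0.33. Of 10 conjugate exporters only Abcc3, which moves glucuronides into the blood, passed, and it rose (2.95, adjusted p = 0.000986). Of 14 other conjugating enzymes Nnmt rose (1.63, adjusted p = 0.046) and Inmt fell (-1.79, adjusted p = 0.0276), both methyltransferases. The call of Nnmt was lost in 15 of 20 fits without 1 mouse (adjusted p up to 0.0796, without high-fat replicate 10), and that of Inmt in 1 (0.0521, without high-fat replicate 10). Of 12 other enzymes that act on electrophiles Cbr1, a carbonyl reductase, fell (-1.77, adjusted p = 0.0293), a call lost in 5 of 20 such fits (up to 0.0544, without low-fat replicate 5). Without low-fat replicates 6 and 9 the adjusted p was 0.0651 for Nnmt, 0.0706 for Inmt and 0.0705 for Cbr1.

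Conjugating enzymes differ in level along the liver lobule, so zone markers were read too. Of 9 pericentral markers Slc1a2, a glutamate transporter, rose (1.62, adjusted p = 0.047, lost in 14 of 20 fits without 1 mouse, up to 0.083 without low-fat replicate 8, and 0.121 without low-fat replicates 6 and 9) and 6 lay above the low-fat mean. Of 6 periportal markers 0 passed and 1 lay above it. Of the 54 measured markers of 10 cell types 2 rose and 1 fell, where 3.49% of all genes passed. These were Krt23 of bile duct cells (2.09), Cela1 of pancreas acinar cells (1.80, with an adjusted p of 0.065 without low-fat replicates 6 and 9) and Mylpf of muscle (-1.99, but -0.35 after quantile normalisation). The other measured markers of these 3 cell types did not pass. Summed in SD units and divided by their number, the 6 bile duct markers lay between -0.69 and 0.98 in high-fat mice and between -1.09 and 0.43 in low-fat mice. The 3 acinar markers lay between -0.014 and 1.36 in high-fat mice and between -1.01 and 1.04 in low-fat mice. The 4 muscle markers lay between -1.37 and 0.46 in high-fat mice and between -0.88 and 1.00 in low-fat mice, so that the diets overlapped in all 3 lists. No marker score was 0, as the scores have no zero, and the part of other cell types in the differences above was not tested.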

How the data were processed

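The deposited table holds a score per probe set and array; per the labels' protocols, total RNA was labelled with biotin by a 3′ kit for Affymetrix arrays. The authors' summary and normalisation method was not given in the sources used here, and no batch or scan date was tested. Of 45037 probe sets that are not controls, 34945 had 1 gene symbol in the platform annotation, 932 had several and 9160 are unnamed here; 34741 matched the GRCm38.p6 gene table, which changed 0 symbols. No filter on low values was used, so all 46 conjugation enzymes were tested. Diets were compared over all 18193 genes with limma 3.58.1 in R 4.3.3 (lmFit, eBayes, two-sided, no covariate, prior degrees of freedom 0.724), with Benjamini-Hochberg adjustment and a threshold of 0.05. The 95% intervals of standardised differences come from the noncentral t distribution. Other probe sets were adjusted over all probe sets. The number of arrays limits the precision. The fit was tested on simulated data with 200 changed genes.

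The members and gene lists were chosen with earlier results of these data known. Full values are given for each gene past the threshold, for Gsta2, Gstt1, Sult1e1 and Gstm1, and for the gene farthest from 0 in families without such a gene. In related lists the genes past the threshold are named, and genes named beside them were chosen after their values were seen. The alternatives were other array scalings, a filter on low means, a replicate block, other variance models, array weights and a threshold of 0.01. Others left out probe sets of the suffixes x, s and a, or averaged all probe sets of a gene. An exact rank sum test (Wilcoxon) and the omission of each mouse were also used. The omission of low-fat replicates 6 and 9 together was added after seeing the data.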

Additional observations from a re-analysis of the deposited data

Results flagged for a closer look

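In each of the 46 genes and both diets, 92 groups of 10 mice in all, the gap between the farthest mouse and its neighbour was divided by the group's range, and 5 groups exceeded Dixon's critical value. Chance gives about 1 in 20. For Sult1e1 in high-fat mice replicate 9 was high (gap over range 0.614, 4.78 SDs from the low-fat mean), and without it the standardised difference was 1.65 (limma adjusted p = 0.0522). For Ugt2b5 in high-fat mice replicate 3 was high (0.57), and without it the standardised difference was -1.17 (adjusted p = 0.170). Low-fat replicate 5 stood apart in the other 3 groups: it was high for Gsta4 (0.487, standardised difference 1.17 without it) and Sult6b1 (0.565, -0.37 without it) and low for Sult1a1 (0.551, -0.63 without it). The cause of these distances was not tested.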

How the results depend on the processing

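The counts of 3 conjugation enzymes that rose, 2 that fell and 635 of all genes moved most with the scaling of arrays. Quantile normalisation gave 2 that rose, 4 that fell and 1472 of all genes (141 higher and 1331 lower, against 312 and 323 as deposited). It left 10 of the 46 genes with 1 value on all arrays and no test. Centring arrays on their medians gave 5, 30 and 15098 (215 higher and 14883 lower). The array medians vary by more than many genes do, so centring does not test those genes. Over all genes the median was -0.40 after quantile normalisation and -1.29 after centring, against 0.04 as deposited. A threshold of 0.01 gave 1, 1 and 212. With all probe sets of the suffixes x, s and a left out 1 gene fell. The probe sets of Gsta2 and Gstm6 carry the suffix a, so these 2 genes were not tested in that setting. Where all probe sets of a gene were averaged 7 fell. Fits without 1 mouse gave 3 that rose throughout, 2 to 4 that fell (4 without low-fat replicate 2 or 10) and 498 to 720 of all genes. The 5 genes past the threshold passed in all 20 of these fits. Their calls ended for Gsta3 after quantile normalisation (-0.67, adjusted p = 0.331), for Ugt3a2 after median centring (-0.56, where the array medians vary by more than its difference) and for Gsta2, Gstm6 and Ugt3a2 at the threshold of 0.01.

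The replicate block gave 421 of all genes and an adjusted p of 0.0725 for Ugt3a2. Same-numbered mice of the 2 diets share only a number: their deviations correlated between -0.159 and 0.26, over 0.1 in 2 of 10 pairs, and 1 of 10 high-fat arrays correlated best with its own number.

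Signs of genes that had not passed turned as follows. Quantile normalisation gave Sult2b1 -0.40, Gstt4 -1.09, Sult1c1 -0.85, Sult2a2 0.061, Ugt2b1 0.45 and Ugt2b35 0.53, and Bach1, which had passed, -0.44. Median centring gave Sult2b1 -1.31, Gstp1 -1.34, Gstt4 -1.26, Sult1c1 -1.15, Sult2a8 -0.65, Sult3a1 -1.34, Ugt2a3 -1.15 and Ugt2b36 -1.10. The deposited score differences of the genes that turned under median centring, at most 1.93e-05 (Sult2a8), are below the range of the array medians. Centring therefore does not test their signs. Averaging probe sets gave Gstm7 0.38 and Mgst1 0.19, leaving out suffixes Mgst1 0.73, and array weights Gstt4 -0.090. Without low-fat mice 6 and 9 the values were Gstz1 0.021, Gstm4 0.30, Gstm7 0.14, Gstt4 -0.26, Sult2a2 0.024, Ugt2b35 0.050 and Ugt2b36 -0.071. Fits without 1 mouse ran from -0.12 to 0.25 for Gstt4, -0.30 to 0.24 for Sult2a2, -0.020 to 0.41 for Sult3a1, -0.073 to 0.35 for Ugt2a3, -0.25 to 0.14 for Ugt2b1 and -0.38 to 0.21 for Ugt2b36. The cause of these changes was not tested.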

Other observations

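Some probe sets for conjugation enzymes carry several gene symbols and belong to no single gene. Of 3 probe sets that the annotation gives to the same 8 genes of the Ugt1a family, which glucuronidates bilirubin and phenols, 1 fell (-1.88, limma adjusted p over all probe sets 0.0297). The others stood at -1.44 (0.109) and -1.06 (0.847). A probe set shared by 3 symbols that include alpha class glutathione transferases rose (1.82, adjusted p over all probe sets 0.0329). Over all probe sets 1.11% were higher and 1.20% lower by this test.

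Of the 46 genes 11 had more than 1 probe set, with 13 further probe sets in all. In 8 of the 11 genes every further probe set lay on the same side of 0 as the one used, and the exceptions were Gstm7, Mgst1 and Mgst3.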
